A study of Homo sapiens with 6 samples.

Results

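The CCR4-NOT complex is the main deadenylase of animal cells, and 10 genes that encode its subunits were followed in HEK293T cells: CNOT1, CNOT2, CNOT3, CNOT6, CNOT6L, CNOT7, CNOT8, CNOT9, CNOT10 and CNOT11. They were taken by symbol, not by their values, and all 10 were found among the 20169 genes of the count table. HEK293T is a human embryonic kidney line that carries the large T antigen of a virus. Messenger RNA was sequenced from 2 monoclonal derivatives of it, 3 libraries each, one with a landing pad (a docking site for a reporter gene) driven by the CAG promoter and one with a landing pad driven by the PGK promoter. CAG is a strong composite promoter with viral and actin parts, and PGK is the promoter of a glycolytic gene. All libraries share the HEK293T background and the landing pad, and no line without a pad is part of the comparison. The labels distinguish no more than 1 clone per promoter, so promoter and clone cannot be told apart in any value below. Nor do they name separate cultures behind the 3 libraries of a clone, and a p-value here therefore reflects only how far these libraries differ, which may be technical. The wider series asks how 3′UTRs set expression levels, and the present libraries profile its host lines.

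CCR4-NOT shortens the poly(A) tails of mRNAs, the step that usually precedes decapping and decay, and it is drawn to particular transcripts by microRNA complexes and by proteins that bind 3′UTRs. CNOT1 is the scaffold on which the other subunits assemble. CNOT2 and CNOT3 bind its C-terminal end, CNOT9 is a docking surface for recruiting proteins, and CNOT10 and CNOT11 form a module at its N-terminal end. Tail shortening is carried out by nucleases of the CCR4 type, CNOT6 or CNOT6L, and of the CAF1 type, CNOT7 or CNOT8, and the members of each pair take the same place in the complex.

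Because the nucleases come as paralogs, it matters whether a short read can be placed on the right one. Across all annotated transcripts in GENCODE 29, CNOT6 and CNOT6L had no identical run longer than 20 bases, and the same was true of CNOT7 and CNOT8. A stretch of 30 coding bases of CNOT6 (chromosome 5, bases 1273 to 1302 of its longest coding transcript) and of CNOT6L (chromosome 4, bases 1002 to 1031 of its longest coding transcript) is shown as an example of where this pair is most alike, with 1 mismatch. The capital marks that mismatch, G16A, counted from 1 at the 5′ end with the CNOT6 base first.
CNOT6: tgcaatattcttcaaGacagaaaaatttac
CNOT6L: tgcaatattcttcaaAacagaaaaatttac
Pseudogenes are closer. Of the 50-base words in CNOT6L transcripts, 6.71% also occur in its pseudogene CNOT6LP1, and 1.57% of those of CNOT7 occur in transcripts of other genes, most of them in its pseudogene CNOT7P1. For the other 8 subunits the share was at most 1.85%.

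Total counts were 22450538 to 23442542 in the CAG libraries and 21896246 to 22889708 in the PGK libraries, and the subunits held between 547 and 10082 reads each in a library. Of the markers checked, VIM, CDH2 and KRT18 were expressed in every library, as was PAX2 at a low level of 1.11 to 1.55 CPM (read count scaled to a fixed library size) in CAG and 1.12 to 2.05 CPM in PGK. The keratin KRT8 was at 4.87 to 5.68 CPM in CAG and 0.876 to 1.49 CPM in PGK. Summed markers of blood and immune cells stayed at or below 0.754 CPM in CAG and 0.764 CPM in PGK, with 2 of 5 at 0 counts. Endothelial and hepatocyte markers stayed at or below 0.186 CPM in every library. The 3 muscle markers summed to 1.55 to 2.57 CPM in CAG and 0.584 to 0.876 CPM in PGK, mostly from the actin ACTA1, and their part in the results was not tested.

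All 10 subunits passed the filter on low counts and were tested with edgeR's quasi-likelihood test, fitted over 13103 genes with Benjamini-Hochberg adjustment. At an adjusted p under 0.05, CNOT2, CNOT3, CNOT6L and CNOT10 were higher in CAG and CNOT8 and CNOT11 were lower, while CNOT1, CNOT6, CNOT7 and CNOT9 did not pass. So 6 of 10 were called (60.0%), against 62.0% of all genes tested, of which 31.6% were higher and 30.4% lower. The count of called subunits was thus near that of any genes in this comparison, and what follows describes which subunits moved and by how much. The median size of the log2 fold change, CAG over PGK, was 0.18 for the subunits and 0.26 for all genes tested, and the signed medians were 0.06 and -0.002. The CAG and PGK libraries did not overlap for the same 6 subunits, as for 65.5% of all genes, with CAG above PGK in 33.5% and below it in 32.0%. When the test asked for more than a 1.5-fold difference, CNOT3 was called higher and no other subunit was called, against 11.5% of all genes, 7.28% of them higher and 4.26% lower. These are bulk samples, so fewer expressing cells and less RNA per cell cannot be told apart.

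**Figure D1:**
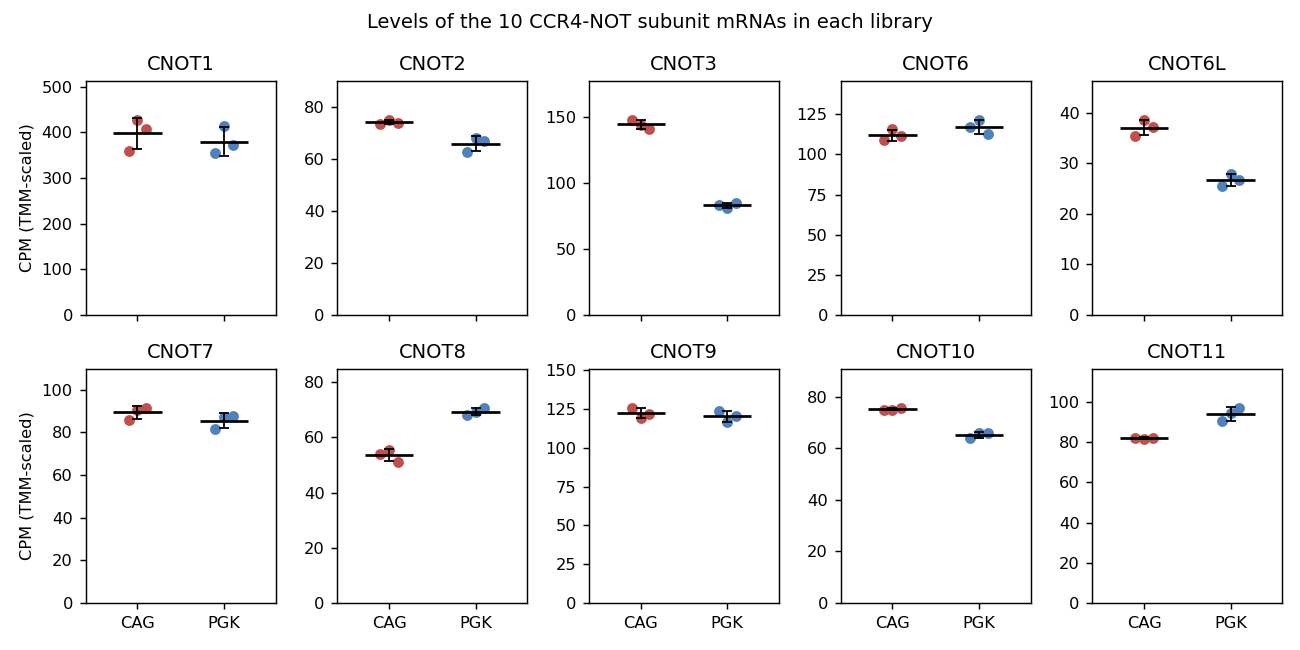
TMM-scaled CPM of each subunit in the 3 CAG (red) and 3 PGK (blue) libraries; each point is a library, the wide line the mean and the bar ± 1 SD, and each panel has its own axis from 0. CNOT3 shows the widest gap between the lines and CNOT8 lies lower in CAG, while the points of CNOT1, CNOT6, CNOT7 and CNOT9 overlap.

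CNOT1, the scaffold, did not pass the test and had the widest relative spread between libraries. It had 359.5, 427.2 and 406.4 CPM in CAG, against 353.8, 414.2 and 371.9 CPM in PGK. The lines overlapped, and replicate 1 was the lowest and replicate 2 the highest in each. Its means were 397.7 ± 34.7 CPM in CAG and 380.0 ± 31.0 CPM in PGK (SD, n = 3 each), a coefficient of variation of 8.72% in CAG and 8.16% in PGK, where no other subunit exceeded 4.39% in either line. The log2 fold change was 0.07 with a 95% interval of -0.08 to 0.21, or a fold of 0.949 to 1.15, and the adjusted p of edgeR's quasi-likelihood test was 0.405. SETD6, a lysine methyltransferase gene on the other strand, overlaps 10% of the exon bases of CNOT1, and since no strand setting of the counting is given in the sources used here, reads there cannot be assigned with certainty. SETD6 itself was at 49.3 CPM in CAG and 43.0 CPM in PGK.

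CNOT3, which with CNOT2 forms the NOT module, changed more than any other subunit. It had 147.6, 144.1 and 140.9 CPM in CAG, against 82.81, 80.9 and 84.78 CPM in PGK. Every CAG library lay far above every PGK library, and the 3 libraries of a line differed little. The fold was 1.74 with a 95% interval of 1.62 to 1.87, a log2 fold change of 0.80 (SE 0.05), and the adjusted p of edgeR's quasi-likelihood test was 1.07e-10. Of all genes tested, 12.7% changed by more. LENG1, on the other strand, overlaps 7.97% of the exon bases of CNOT3. It was at 18.9 ± 1.80 CPM in CAG and 16.7 ± 2.11 CPM in PGK (SD, n = 3 each). How reads there were assigned is not known, and their part in the difference was not tested. Smaller exon overlaps on the other strand hold for CNOT8 (FAXDC2, 4.15%), CNOT11 (TBC1D8, 2.33%), CNOT7 (VPS37A, 2.22%) and CNOT2 (LINC01481, 2.11%). CNOT10 overlaps CNOT10-AS1 on the other strand by 0.929% and SUGT1P2 on its own strand by 1.38%. Reads in these overlaps cannot be assigned with certainty either.

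CNOT2, its partner in the module, rose by much less. CNOT2 had 73.44, 74.91 and 73.80 CPM in CAG, against 62.46, 67.83 and 66.99 CPM in PGK. The lines did not overlap, and the PGK libraries were more spread than those of CAG. The fold was 1.13 with an interval of 1.04 to 1.21, and the adjusted p in the same edgeR quasi-likelihood test was 0.00827. A ratio of counts within a library does not depend on library scaling, but it does on gene length, so only its difference between lines can be read. The count of CNOT3 was 201%, 192% and 191% of that of CNOT2 in CAG libraries, against 133%, 119% and 127% in PGK libraries. This pair was compared after the values were seen, so no test of it is given.

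CNOT9, the docking subunit for recruiting proteins, differed least. It averaged 122.4 ± 3.15 CPM in CAG and 120.5 ± 3.58 CPM in PGK (SD, n = 3 each). The fold of 1.02 had a 95% interval of 0.947 to 1.09, with an adjusted p of 0.707 in edgeR's quasi-likelihood test. A change of more than 1.5-fold in either direction lies outside that interval, as it does for CNOT1, CNOT6 and CNOT7.

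The module of CNOT10 and CNOT11 held subunits that moved in opposite directions. CNOT10 had 75.04, 74.91 and 75.60 CPM in CAG, against 63.95, 65.80 and 66.12 CPM in PGK. CNOT11 had 82.31, 81.69 and 82.15 CPM in CAG, against 90.45, 94.66 and 96.96 CPM in PGK. Neither gene overlapped between the lines, with CNOT10 higher and CNOT11 lower in each CAG library. CNOT10 rose by a fold of 1.15 (95% interval 1.07 to 1.24), with an adjusted p of 0.00162 by edgeR's quasi-likelihood test. CNOT11 changed by a fold of 0.873 (95% interval 0.812 to 0.938), with an adjusted p of 0.00215 by the same edgeR test. Their sum was 157.2 ± 0.581 CPM in CAG and 159.3 ± 4.45 CPM in PGK (SD, n = 3 each), and its libraries overlapped. Summed per kilobase of exons, the pair was at 44.97 ± 0.163 CPM per kilobase in CAG and 47.22 ± 1.42 CPM per kilobase in PGK (SD, n = 3 each), and did not overlap. Within a library, the count of CNOT10 was 91.2% to 92.0% of that of CNOT11 in CAG, against 68.2% to 70.7% in PGK, a comparison also made after the values were seen.

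Among the CCR4-type nucleases, the minor paralog rose and the major one did not pass the test. CNOT6L had 35.48, 38.56 and 37.17 CPM in CAG, against 25.48, 27.78 and 26.64 CPM in PGK. The lines did not overlap. The fold was 1.39 with a 95% interval of 1.27 to 1.53, and the adjusted p of edgeR's quasi-likelihood test was 3.09e-06. CNOT6 had 108.8, 115.7 and 111.8 CPM in CAG, against 117.2, 121.5 and 112.7 CPM in PGK. Its libraries overlapped, and the log2 fold change of -0.06 had an interval of -0.17 to 0.04 and an adjusted p of 0.287 in the same edgeR test. The count of CNOT6L was 32.6%, 33.3% and 33.2% of that of CNOT6 in CAG libraries, against 21.7%, 22.9% and 23.6% in PGK libraries. The log2 ratio was higher in CAG by 0.54, with no overlap, and the exact two-sided permutation p of 0.1 is the smallest that 3 libraries against 3 allow. The summed CPM of the pair overlapped between the lines, at 149.2 ± 4.98 in CAG and 143.8 ± 5.08 in PGK (SD, n = 3 each).

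Among the CAF1-type nucleases, CNOT8 was lower in CAG and CNOT7 did not pass. CNOT8 had 53.97, 55.55 and 51.18 CPM in CAG, against 68.19, 69.17 and 70.63 CPM in PGK. All CAG libraries lay below all PGK libraries. CNOT8 fell by 22.7%, a fold of 0.773 with an interval of 0.715 to 0.834 and an adjusted p of 6.45e-06 in edgeR's quasi-likelihood test. CNOT7 ranged over 86.04 to 91.42 CPM in CAG and 81.6 to 87.72 CPM in PGK, a fold of 1.04 with an interval of 0.969 to 1.13 and an adjusted p of 0.302 in the same edgeR test. The count of CNOT8 was 62.7%, 61.2% and 56.0% of that of CNOT7 in CAG libraries, against 83.6%, 79.2% and 80.5% in PGK libraries. The log2 ratio changed by -0.44, again with no overlap and an exact two-sided permutation p of 0.1. The summed CPM of this pair was lower in CAG, at 143.0 ± 3.14 against 154.9 ± 4.51 in PGK (SD, n = 3 each), without overlap.

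**Figure D2:**
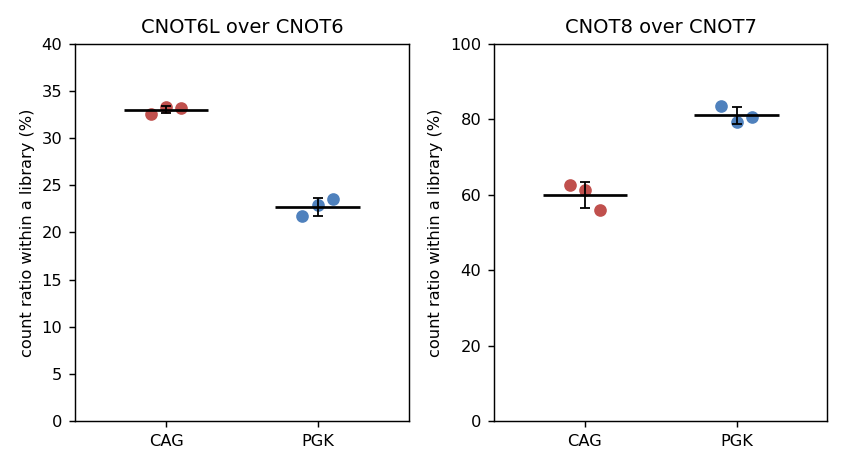
Count of CNOT6L as a percentage of that of CNOT6, and of CNOT8 as a percentage of that of CNOT7, in each CAG (red) and PGK (blue) library; the line is the mean, the bar ± 1 SD, and the axes start at 0. The CNOT6L share is 32.6% to 33.3% in CAG against 21.7% to 23.6% in PGK, and the CNOT8 share 56.0% to 62.7% in CAG against 79.2% to 83.6% in PGK.

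Summed over all 10 genes, the mRNAs of the complex took up 1148, 1223 and 1192 CPM in CAG libraries, against 1070, 1146 and 1105 CPM in PGK libraries. The lowest CAG library lay just above the highest PGK library. The mean in CAG was 7.29% above that in PGK, with 1188 ± 37.6 CPM and 1107 ± 38.1 CPM (SD, n = 3 each). Most of that gap came from CNOT3 alone, at means of 144.2 CPM in CAG and 82.83 CPM in PGK, so it is no rise of the subunits in general. Divided by gene length first, the sums were 173.8 ± 3.30 CPM per kilobase in CAG and 167.8 ± 3.99 CPM per kilobase in PGK, and the lines overlapped. No test is given for these sums. The 4 nucleases together summed to 292.2 ± 8.12 CPM in CAG and 298.6 ± 6.74 CPM in PGK, and overlapped. Per length they summed to 42.78 ± 1.17 CPM per kilobase in CAG and 46.09 ± 0.850 CPM per kilobase in PGK, without overlap (SD, n = 3 each).

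Levels of different subunits can be compared only per length, and the scale used here is CPM per kilobase of the union of annotated exons. In CAG the order ran from CNOT1 at 36.6 ± 3.20, through CNOT11 at 29.5 ± 0.116, CNOT9 at 23.1 ± 0.595, CNOT3 at 21.0 ± 0.485, CNOT6 at 17.0 ± 0.524, CNOT10 at 15.5 ± 0.0756, CNOT8 at 13.6 ± 0.562, CNOT7 at 8.17 ± 0.267 and CNOT2 at 5.29 ± 0.0548, to CNOT6L at 3.96 ± 0.165 (SD, n = 3 each). No neighbours in that order overlapped between their libraries. In PGK the order differed in the middle, where CNOT3 at 12.0 ± 0.282 and CNOT10 at 13.5 ± 0.242 came below CNOT6 at 17.8 ± 0.672 and CNOT8 at 17.6 ± 0.313 (SD, n = 3 each). CNOT1 and CNOT11, and CNOT6 and CNOT8, overlapped in PGK. CNOT3 thus stood above CNOT6, CNOT8 and CNOT10 in CAG and below all of them in PGK. In both lines CNOT6L was the lowest and CNOT1 the highest. Both nuclease pairs were uneven on this scale. CNOT6L was at 0.232 of CNOT6 in CAG, against 0.160 in PGK, and CNOT8 was at 1.67 times CNOT7 in CAG, against 2.26 times in PGK.

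The order depends on the length used. With the longest annotated transcript in place of all exons, CNOT2 came to 15.6 CPM per kilobase in CAG and 13.8 in PGK and passed CNOT7, at 12.9 in CAG and 12.4 in PGK. CNOT6, at 17.8 in CAG and 18.6 in PGK, then lay below both CNOT8 and CNOT10 in each line, without overlap. CNOT8 was at 19.8 in CAG and 25.6 in PGK, and CNOT10 at 26.7 in CAG and 23.2 in PGK. CNOT3 and CNOT11, at 31.8 and 31.6 in CAG, then overlapped, and so did CNOT3 and CNOT6, at 18.3 and 18.6 in PGK. CNOT1 remained the highest and CNOT6L the lowest with either length, in both lines. CNOT8 was at 1.53 times CNOT7 in CAG and 2.07 times in PGK with the longest transcript. Before division by length, its counts were below those of CNOT7 in every library, so which of the pair is higher depends on that division.

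**Figure D3:**
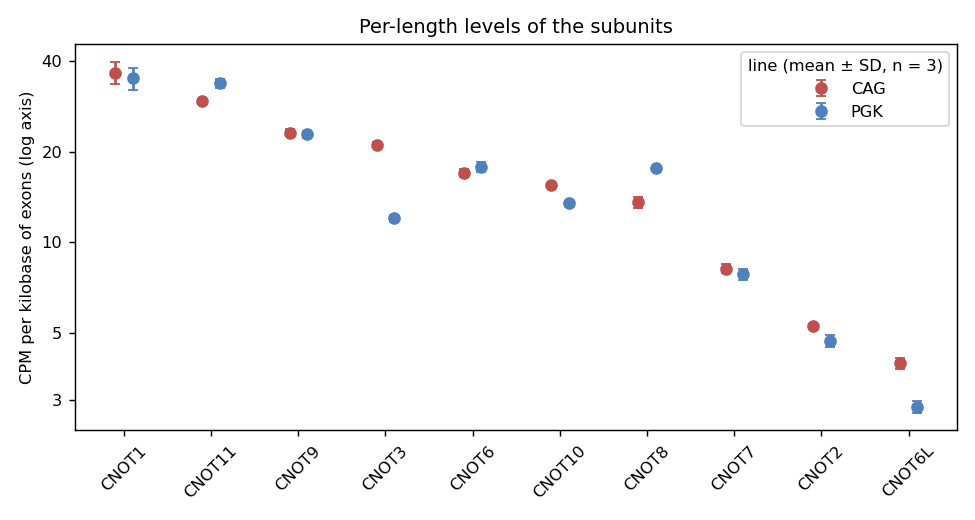
CPM per kilobase of exons for each subunit on a log axis, mean ± SD over 3 CAG (red) and 3 PGK (blue) libraries, ordered by the CAG mean. The levels in CAG span from 3.96 for CNOT6L to 36.6 for CNOT1, and the lines part most at CNOT3, with 21.0 in CAG and 12.0 in PGK.

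Earlier results of these data held stretches of neighbouring genes that shifted together, which was not tested again here. Each subunit was therefore set beside the 50 tested genes nearest to it in order on its chromosome (33 for CNOT6, near a chromosome end). CNOT6L, on chromosome 4, had a log2 fold change of 0.48, and its neighbours had a median of 0.47; of these 50, 44 were called higher and 1 lower. CNOT8, on chromosome 5, had -0.37 with neighbours at -0.44, of which 42 were lower and 3 higher. The medians of both sets of neighbours lay inside the 95% interval of the subunit itself. CNOT10, on chromosome 3, had 0.20 against 0.32 for its neighbours, of which 36 were higher and 3 lower.

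CNOT3, on chromosome 19, also lay among genes that were mostly higher, 38 of 50, with 1 lower. Their median log2 fold change was 0.45, so CNOT3 at 0.80 exceeded it by 0.35, and its interval of 0.70 to 0.90 did not reach it. CNOT6, on chromosome 5 like CNOT8, lay among genes of which 23 of 33 were lower and 0 higher, with a median of -0.34. Its own value of -0.06 was not called, and its interval of -0.17 to 0.04 lay above that median.

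The other called subunits moved away from neighbours that were near 0. CNOT2, on chromosome 12, had 0.17 where the median of its neighbours was -0.06, and 10 of them were higher and 18 lower. CNOT11, on chromosome 2, had -0.20 where its neighbours had -0.07, with 14 higher and 17 lower. CNOT1 on chromosome 16, CNOT7 on chromosome 8 and CNOT9, also on chromosome 2, had neighbours with medians of -0.02, -0.04 and -0.11. In all, 6 of 10 subunits had the sign of their neighbours' median, among them CNOT6, which was not called. The share of all genes that do so was not computed, so this count is description only. With windows of 20 and of 100 genes the count was again 6, but which subunits made it up changed with 20. The median was then 0.06 for CNOT1, which had that sign, and 0.01 for CNOT11, which did not. The part of these neighbourhoods in the differences between lines was not tested.

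**Figure D4:**
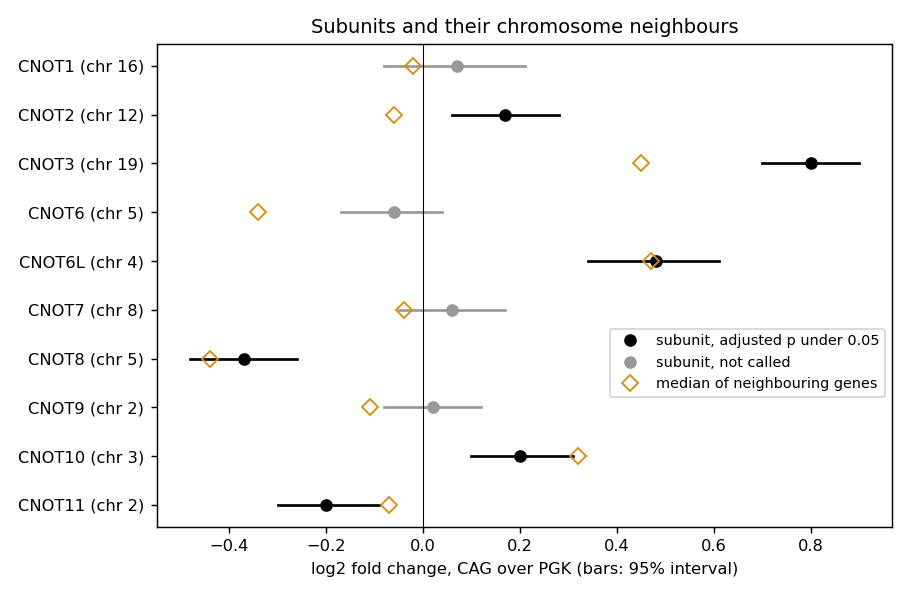
Log2 fold change, CAG over PGK, of each subunit (points, with 95% intervals; black where the adjusted p was under 0.05, grey where not) and the median of its neighbouring genes on the chromosome (open diamonds). The diamonds of CNOT6L and CNOT8 lie within the subunit's interval, while CNOT3 at 0.80 lies above its diamond at 0.45 and CNOT6 at -0.06 above its diamond at -0.34.

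Around the core complex, 6 lists of its partners held 65 genes, of which 64 were matched and 59 tested, with 20 higher and 16 lower. Of all genes tested, 31.6% were higher and 30.4% lower, so these counts were near those of any genes. The closest associates hardly differed. CNOT4, a ubiquitin ligase that binds the complex loosely in human cells, and TNKS1BP1, which copurifies with it, had log2 fold changes of 0.04 (95% interval -0.11 to 0.19) and 0.01 (-0.10 to 0.11), and 0 of 2 were called.

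The list of other deadenylases and enzymes related to them had 4 higher and 3 lower of 8 tested (87.5% called, beside 62.0% of all genes). Its median log2 fold change was 0.13, where that of all genes was -0.002. Whether each of its members shortens tails was not tested. The subunits of the PAN2-PAN3 complex, which trims long tails, went in opposite directions. PAN3 was at 40.9 ± 2.46 CPM in CAG and 28.4 ± 2.52 CPM in PGK, and PAN2, the nuclease, at 38.3 ± 0.830 CPM in CAG and 46.7 ± 1.80 CPM in PGK (SD, n = 3 each). Their log2 fold changes were 0.53 and -0.28. NOCT, a CCR4-related enzyme, rose to 16.0 ± 0.684 CPM in CAG, against 10.1 ± 0.0736 CPM in PGK, and PARN, a poly(A)-specific ribonuclease, was lower at 55.0 ± 2.68 CPM in CAG against 64.5 ± 2.61 CPM in PGK (SD, n = 3 each). These 4 genes had an adjusted p between 6.21e-07, for NOCT, and 0.00154, for PARN, in edgeR's quasi-likelihood test. The neighbours of PAN3 and NOCT had medians of 0.46 and 0.40. PAN2 shares 1.56% of its exon bases with CNPY2 on its own strand.

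BTG and TOB proteins, which bind the CAF1-type nucleases, had 3 lower and 1 higher of 5 tested (4 of 5 called, beside 62.0% of all genes, where 30.4% were lower), with a median log2 fold change of -0.21. TOB1 was at 39.2, 36.1 and 36.7 CPM in CAG, against 61.2, 54.7 and 49.5 CPM in PGK. BTG2, which is also a p53 target, was at 24.2, 23.5 and 25.5 CPM in CAG, against 36.4, 31.7 and 30.5 CPM in PGK. Both were lower in every CAG library, by log2 fold changes of -0.56 and -0.43, while the medians of their neighbours were 0.01 and -0.04. BTG1 rose by 0.15 on the log2 scale. TOB1 and BTG1 overlap an antisense transcript and are uncertain. BTG1 also shares 10.4% of its exon bases with LINC01619 on its own strand.

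Proteins that bring the complex to its targets had 9 higher and 4 lower of 20 tested (65.0% called, near the 62.0% of all genes). Their median was 0.10. SAMD4A, a Smaug repressor, had the largest change of the 6 lists, at 7.05 ± 0.975 CPM in CAG and 19.6 ± 2.02 CPM in PGK (SD, n = 3 each), a log2 fold change of -1.47. Its more abundant paralog SAMD4B went the other way, at 158 ± 4.65 CPM in CAG and 111 ± 2.21 CPM in PGK (SD, n = 3 each). The log2 fold change of SAMD4B was 0.51, with neighbours at a median of 0.32. The cytoplasmic polyadenylation element binder CPEB4 was at -0.59, with neighbours at a median of -0.35. NANOS1 rose by 0.72 and CPEB1 by 0.61, both from low levels of at most 6.63 CPM in CAG and 4.40 CPM in PGK. The neighbours of CPEB1 had a median of 0.37. NANOS1 and CPEB1 overlap a gene on the other strand and are uncertain. CPEB1 also shares 21.8% of its exon bases with AC245033.1 on its own strand.

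Poly(A)-binding proteins and their regulators had 4 lower and 0 higher of 7 tested, with a median of -0.18. The share called was 57.1%, all of it lower, beside 62.0% of all genes (30.4% lower and 31.6% higher). PAIP2B, an inhibitor of poly(A)-binding protein, was at -0.43 and PABPC1L, a poly(A)-binding protein of oocytes, at -0.32 with neighbours at -0.35. Decapping and 5′ decay factors, which act after deadenylation, had 6 higher and 2 lower of 17 tested (47.1% called, beside 62.0% of all genes). Their median was -0.03. LSM6 and LSM4, parts of the LSM ring that binds shortened tails, were at 0.53 and -0.54, and their neighbours had medians of 0.41 and -0.55. LSM2 was at -0.40, and LSM14A, a repressor found in P-bodies, at 0.42 with neighbours at 0.58. The named genes of these lists given without such a value (PAN2, PARN, BTG1, NANOS1, SAMD4A, PAIP2B and LSM2) had neighbours with medians of -0.14 to 0.02. No set test was made for any list, and none of these shares was compared with the subunits by a test.

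**Figure D5:**
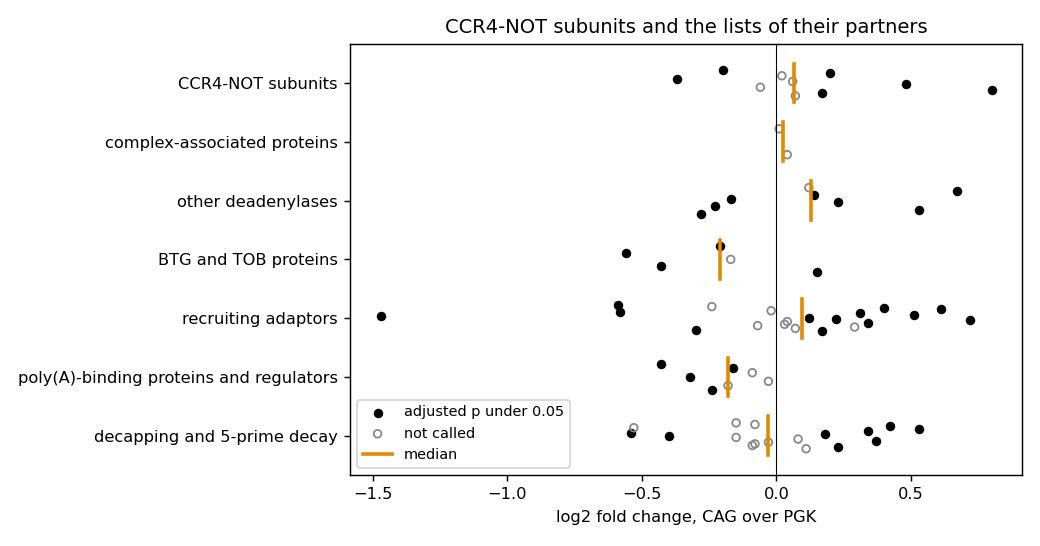
Log2 fold change, CAG over PGK, of each tested gene of the CCR4-NOT complex and of the 6 lists of partners (filled where the adjusted p was under 0.05, open where not), with each list's median as an orange bar. The subunits span -0.37 to 0.80, and the point farthest to the left is SAMD4A at -1.47.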

How the data were processed

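The authors deposited whole-number read counts per Ensembl gene, neither normalized nor pooled, for 3 CAG and 3 PGK libraries of polyA-selected RNA made with a directional kit, per the labels' protocols. The submitters' processing notes list featureCounts 2.0.3, HISAT2 2.2.1, Bowtie2 2.5.1, cutadapt 4.6 and the hg19 build. What each tool did, the annotation, the strand setting and the handling of multiply mapped reads are not stated there. Of 20169 rows, 19346 matched GENCODE 29 by identifier. GENCODE 29 is built on GRCh38, so it gave names, chromosomes, gene order, overlaps and lengths, and no coordinates are printed. DCP1A, LHX1, NEFL and PECAM1 were not matched and are not analysed here.

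Counts were filtered with filterByExpr, scaled by TMM and tested with edgeR 4.0.16 (R 4.3.3, robust quasi-likelihood fit, two-sided, Benjamini-Hochberg over 13103 genes); intervals are 95%. CPM uses the TMM-scaled library size. Standard errors (SE) were derived from the F statistics. The same steps were tried on simulated counts with known changes in a far smaller share of genes than was called here. How they perform where most genes differ was not tested. Named genes were the 10 subunits and, per list, up to 2 called genes with the largest change in each direction and at least 1 CPM in a line; CNOT4, TNKS1BP1 and other genes were named after their values were seen. The members and lists were chosen with earlier results of these data known. No 2 libraries of a line agreed within sampling noise (chi-square per degree of freedom at least 3.31). DESeq2 1.42.0, limma-voom (limma 3.58.1), other filters and scalings, a fold threshold, a replicate block and leaving out each library were tried as alternatives.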

Additional observations from a re-analysis of the deposited data

How the results depend on the processing

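Counts of 4 subunits higher and 2 lower in CAG were the same under no low-count filter, a stricter filter, RLE size factors, library size only, DESeq2, limma-voom, the replicate block and without each library in turn. Tested against a fold of 1.5, 1 subunit was higher and 0 lower, with 1512 genes called in all, and 0 partner genes higher and 1 lower; CNOT2 (0.17), CNOT6L (0.48), CNOT8 (-0.37), CNOT10 (0.20) and CNOT11 (-0.20) then lost their calls, since that test asks for a larger change. Under the other alternatives the partner lists gave 16 to 23 genes higher and 15 to 20 lower. Of 140 subunit values under 14 alternatives, 133 kept their direction and their side of the threshold. CNOT9, never called, changed sign without PGK replicate 2 (-0.00083) and without CAG replicate 1 (-0.002), and lay between -0.002 and 0.04 as each library was left out. Without 1 library, CNOT3 ranged from 0.78 to 0.82 and CNOT2 from 0.13 to 0.19. The ratio of the highest to the lowest per-length level in CAG was 9.26, and 11.2 with the longest transcript, which uses other lengths.

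Same-numbered CAG and PGK libraries deviated together weakly, with correlations of 0.108, 0.103 and 0.0131 for replicates 1, 2 and 3, so the numbers were not taken as pairs, although each library correlated best with its own number. With the replicate block 8861 genes were called in place of 8125, and no subunit changed its call. Each subunit had at least 547 reads in a library, and intervals for those not called still allow changes of up to 0.21 on the log2 scale (CNOT1).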
